A study of Mus musculus with 12 samples.

Results

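The 10 genes described here encode the core of Polycomb repressive complex 2 (PRC2) and the enzymes that write, copy and remove DNA methylation. They are *Ezh1*, *Ezh2*, *Suz12*, *Eed*, *Dnmt1*, *Dnmt3a*, *Dnmt3b*, *Uhrf1*, *Tet1* and *Tet2*, chosen by name, and they are 10 of the 55450 genes counted. All 10 passed the filter on low counts, which left 19276 genes to test. The RNA came from tibialis anterior (TA) muscle, a limb muscle, of wild-type mice of the 129Pas background at E18.5 (shortly before birth), 2 wks and 7 wks of age. Each age was represented by 4 mice, which gave 12 libraries, and the mice had no treatment and no engineered allele. The series was made to follow splicing during postnatal muscle development, and RNA was the only thing measured in these libraries, so neither the chromatin marks nor the proteins are described.

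PRC2 places methyl groups on a lysine of the histone H3 tail, and genes that carry this mark are kept silent. Its catalytic subunit is either EZH2, typical of dividing cells, or EZH1, typical of cells that have left the cell cycle, and neither works without the scaffold SUZ12 and the mark-reading subunit EED. On DNA, DNMT3A and DNMT3B methylate cytosines anew, DNMT1 copies methylation onto the new strand after replication with the help of UHRF1, and TET1 and TET2 oxidize methylcytosine as a step of its removal. In muscle, EZH2 is known to restrain differentiation genes in myoblasts and to give way to EZH1 in differentiated fibers.

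Promoter sequences from among the 10 genes are shown first. E2F factors are known to drive many S-phase genes, so windows from 250 bases before to 50 bases after each RefSeq start (GRCm38.p6, 300 bases) were searched on both strands for the words TTTCCCGC, TTTCGCGC, TTTGCCGC and TTTGGCGC. These words were in 2.6% of the 27025 genes with a window and in 4 of the 10 genes, *Ezh2*, *Suz12*, *Dnmt1* and *Uhrf1*. A gene counted if any of its windows matched, and of all windows 2.26% did. For *Dnmt1* and *Uhrf1* the first RefSeq start had no match. The 5 matches are given in 30 bases each, 5′ to 3′ on the gene's strand, with the word in capitals and the base of its first letter counted from the start.
*Ezh2* at 4 (chr6:47595009-47595038, minus strand): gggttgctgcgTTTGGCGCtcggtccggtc
*Suz12* at -219 (chr11:79992876-79992905, plus strand): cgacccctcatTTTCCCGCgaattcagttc
*Dnmt1*, the third RefSeq start, at -219 (chr9:20952824-20952853, minus strand): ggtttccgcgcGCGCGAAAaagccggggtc
*Dnmt1*, the third RefSeq start, at 34 (chr9:20952574-20952603, minus strand): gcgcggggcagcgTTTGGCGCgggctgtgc
*Uhrf1*, the second RefSeq start, at -185 (chr17:56304117-56304146, plus strand): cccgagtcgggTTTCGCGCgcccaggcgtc
The *Dnmt1* match at -219 is the reverse complement of a searched word. A match describes letters in a window, not a bound site, and a part of these words in any change was not tested.

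The 2 catalytic genes of PRC2, which moved in opposite directions, are shown by the 120 bases before their start, with CCAAT and its reverse complement ATTGG in capitals.
*Ezh1* (chr11:101226464-101226583, minus strand): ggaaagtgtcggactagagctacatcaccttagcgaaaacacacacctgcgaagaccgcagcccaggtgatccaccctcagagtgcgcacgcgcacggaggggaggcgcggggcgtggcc
*Ezh2* (chr6:47595031-47595150, minus strand): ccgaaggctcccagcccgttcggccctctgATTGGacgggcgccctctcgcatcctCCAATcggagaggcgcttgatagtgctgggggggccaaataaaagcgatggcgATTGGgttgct
The *Ezh2* stretch held CCAAT 3 times, at -90, -64 and -11, and the *Ezh1* stretch did not hold it. CCAAT was in the windows of 41.1% of genes and of 5 of the 10 (*Ezh2*, *Suz12*, *Eed*, *Dnmt1* and *Uhrf1*), and no E2F word shared a base with it. The myogenic E-box CAGCTG was in 18.3% of genes and in 0 of the 10. Windows of the 10 genes held from 2 to 57 CpG dinucleotides against a median of 7 over the 32851 windows of all genes, and 14 of their 15 windows held at least that median. The E2F words contain CpG themselves, and the share of genes with them was not matched for CpG content or for windows per gene.

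Each library held between 63018968 and 123449246 counts. All 7 muscle markers (*Ckm*, *Acta1*, *Mylpf*, *Tnnt3*, *Actn3*, *Ttn* and *Des*) were detected at every age, and their summed level, in counts scaled to a common library size (CPM), was between 12241 and 21785 before birth and between 116528 and 139343 at 2 wks. Few genes filled the postnatal libraries, where the top 20 held 32.2 to 35.3% (2 wks) and 36.3 to 37.7% (7 wks) of all counts, against 8.38 to 11.3% before birth. Levels are therefore given as CPM after TMM scaling, which sets the bulk of genes equal between libraries. TMM raised log2 fold changes over total-count scaling by a median of 0.93 at 2 wks against E18.5 and of 0.35 at 7 wks against 2 wks, so a rise or fall means relative to most other genes, and ratios of 2 genes within a library are given because no scaling touches them.

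Some libraries stood apart for these genes. In E18.5 replicate 1, the 5 genes with a transcript GC content of 41.9 to 47.9% (*Ezh2*, *Suz12*, *Eed*, *Tet1*, *Tet2*) were at their highest of the 4 mice, and the 5 with 51.4 to 53.7% (*Ezh1*, *Dnmt1*, *Dnmt3a*, *Dnmt3b*, *Uhrf1*) at their lowest. After each library's trend over GC content was removed, this held for 4 and 4 of them. The library of 7 wks replicate 3 was the lowest of its age for 7 of the 10. In 2 wks replicate 3, the summed level of 20 cell cycle genes reached 418 CPM, whereas the remaining 2-wk mice had 215 to 236. The number of genes past the threshold without E18.5 replicate 1 was 9 at 2 wks against E18.5, 6 at 7 wks against 2 wks and 9 at 7 wks against E18.5, as with all libraries.

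Of the 10 genes, 9 changed between E18.5 and 2 wks (adjusted P under 0.05, edgeR), 2 up and 7 down. Under the same rule 65.7% of all tested genes changed, 31.5% up and 34.2% down. Between 2 and 7 wks, 6 of the 10 changed, 1 up and 5 down, against 27.5% of all genes (13.5% up, 13.9% down). From E18.5 to 7 wks, 9 changed, 2 up and 7 down, against 71.4% (34.3% up, 37.1% down). The median log2 fold change of the 10 was -0.79, -0.51 and -1.17 in the 3 comparisons, and that of all genes was -0.0925, -0.0339 and -0.0879. With total-count scaling the calls were 0 up and 9 down, 0 up and 5 down, and 0 up and 8 down. Most genes that changed fell under that scaling. Of all 19276 tested genes, 2550 rose and 11923 fell by 2 wks. From 2 to 7 wks 948 rose and 5392 fell, and from E18.5 to 7 wks 2291 rose and 13297 fell. The median log2 fold changes of all genes were then -1.02, -0.383 and -1.37. The 2 of the 10 genes that rose by 2 wks with TMM scaling were *Ezh1* and *Dnmt3a*, as the plot by mouse shows.

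**Figure D1:**
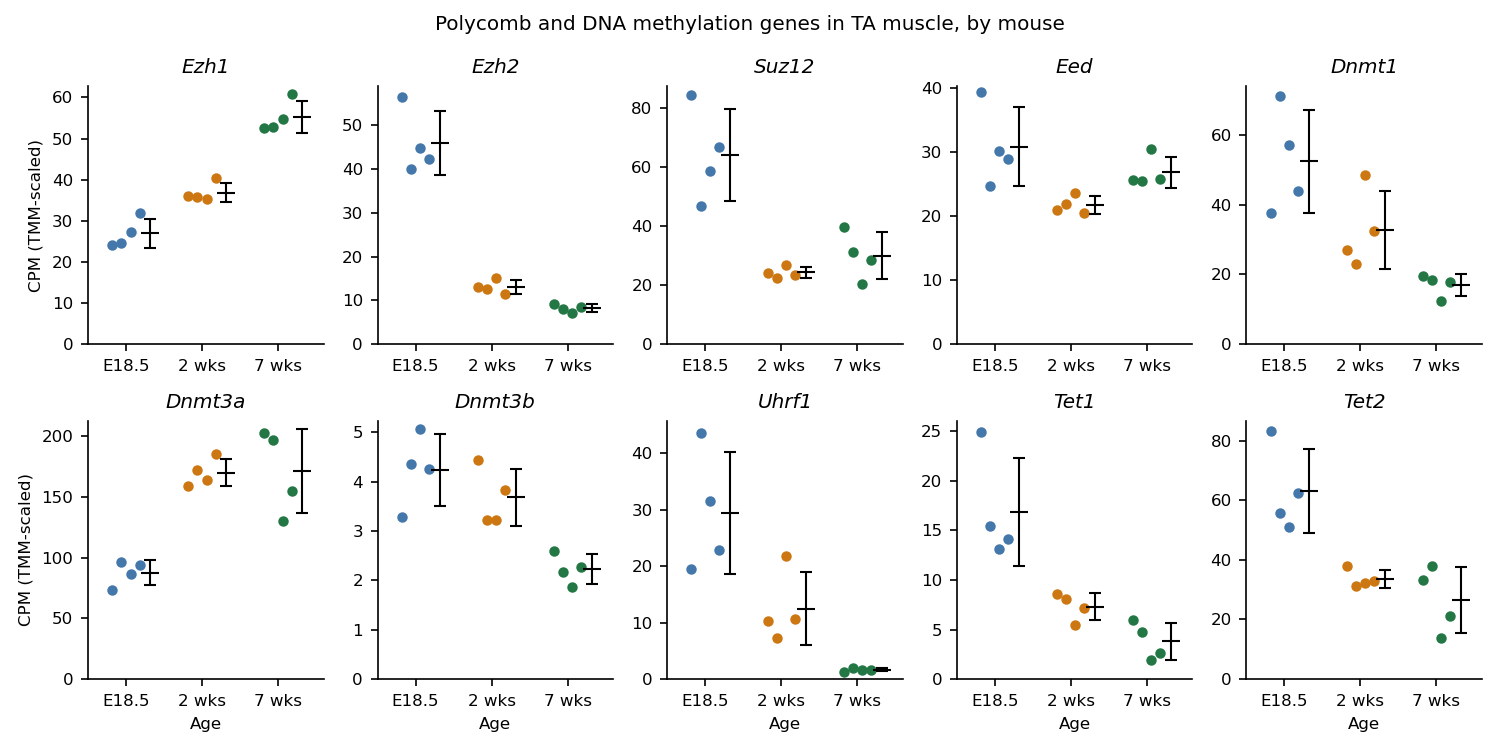
TMM-scaled CPM of each of the 10 genes (y axis, linear from 0) in the 4 mice of each age (x axis), 1 point per mouse, with the mean and SD as a black bar. *Ezh2* lies between 40 and 56.4 CPM at E18.5 and between 7.03 and 9.21 at 7 wks, while *Ezh1* goes from between 24.1 and 31.8 to between 52.6 and 60.9 on this scale and lies lower at 7 wks than at E18.5 with total-count scaling.

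*Ezh2* (ENSMUSG00000029687, chr6:47530274-47595270 on GRCm38.p6), which encodes the PRC2 catalytic subunit of dividing cells, was at 56.4, 40, 44.8 and 42.3 CPM in the 4 mice at E18.5. It was at 13.0, 12.6, 15.1 and 11.5 CPM at 2 wks and at 9.21, 7.95, 7.03 and 8.48 CPM at 7 wks. The 3 ages did not overlap. *Ezh2* fell 3.51-fold from 45.9 ± 7.26 to 13.1 ± 1.5 CPM (SD, n = 4) by 2 wks (log2 fold change -1.81, SE 0.15, adjusted P = 4.97e-07) and a further 1.60-fold to 8.17 ± 0.916 by 7 wks (log2 fold change -0.68, SE 0.15, adjusted P = 0.00489). The second fall was smaller than the first by 1.14 on the log2 scale (SE 0.26, adjusted P = 0.00476), a test of the later change minus the earlier one that 38.4% of all genes passed. Without the GC trend this difference was 0.51 (adjusted P = 0.0402). Both falls kept their direction and stayed past the threshold under each alternative that was run, but their size varied. They were -1.32 and -0.82 without the GC trend, and -2.74 and -1.02 with total counts.

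*Ezh1* (ENSMUSG00000006920, chr11:101191115-101226463), the catalytic subunit of resting cells, went the other way on the TMM scale. It was at 24.1, 24.6, 27.3 and 31.8 CPM at E18.5, at 36.0, 35.8, 35.4 and 40.3 at 2 wks and at 52.6, 52.8, 54.8 and 60.9 at 7 wks. Again no mouse of one age overlapped with another age. The means were 26.9 ± 3.53, 36.9 ± 2.31 and 55.3 ± 3.90 CPM (SD, n = 4), a log2 rise of 0.45 (SE 0.12, adjusted P = 0.00575) and then of 0.58 (SE 0.13, adjusted P = 0.00422). The direction of the first step depended on the scaling, since with total counts *Ezh1* fell by 0.48 by 2 wks (adjusted P = 0.00452) and stood at a log2 fold change of -0.24 at 7 wks against E18.5 (adjusted P = 0.105). Its step from 2 to 7 wks was 0.24 with total counts (adjusted P = 0.182). The rise of *Ezh1* is thus one relative to most other genes. Exons of *Ezh1* and *Ezh2* share 814 and 94 bases with *Cntnap1* and *Cul1* on the opposite strand, and the strand setting of the counting is not given in the sources used here, so a part of either gene's counts is uncertain.

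The ratio of the 2 catalytic subunits within a library is free of scaling and turned over between E18.5 and 2 wks. The log2 ratio of *Ezh1* to *Ezh2* counts was -1.23, -0.70, -0.71 and -0.41 at E18.5, 1.47, 1.51, 1.23 and 1.80 at 2 wks and 2.51, 2.73, 2.96 and 2.84 at 7 wks. Per kilobase of canonical transcript, *Ezh1* made up between 23.7 and 35.4% of the *Ezh1* and *Ezh2* transcripts before birth, between 63.0 and 71.8% at 2 wks and between 80.6 and 85.0% at 7 wks. Per length, *Ezh2* led in all 4 mice at E18.5, and *Ezh1* led in all 8 mice after birth. The log2 ratio rose by 2.27 (pooled SD 0.29) and then by 1.26 (pooled SD 0.21), higher in 16 of 16 pairs of mice in both steps. Each step had P = 0.0286 in a two-sided exact permutation test, the smallest that 4 mice against 4 allow, and 0.0406 after adjustment over the 27 ratio tests made. With the GC trend removed the first step was 1.74 and the rise from E18.5 to 7 wks was 3.13 instead of 3.53.

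*Suz12* (ENSMUSG00000017548, chr11:79993106-80034123), the scaffold of PRC2, was at 84.3, 46.9, 58.7 and 66.7 CPM at E18.5, at 24.2, 22.6, 26.9 and 23.6 at 2 wks and at 39.8, 31.1, 20.3 and 28.7 at 7 wks. Each E18.5 mouse lay above each postnatal mouse, whereas the 2 postnatal ages overlapped. The fall to 2 wks was 2.64-fold (log2 fold change -1.40, SE 0.21, adjusted P = 5.61e-05), and without the GC trend it was smaller, at -0.68 (adjusted P = 0.000121). The step to 7 wks, 0.30 (SE 0.20), did not pass the threshold (adjusted P = 0.292) and was -0.04 with total counts. Early and late steps differed by 1.70 (SE 0.37, adjusted P = 0.00329), or by 0.77 without the GC trend (adjusted P = 0.00845).

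*Eed* (ENSMUSG00000030619, chr7:89954654-89980976), the subunit that reads the mark, was at 39.3, 24.7, 30.1 and 28.9 CPM at E18.5, 21.0, 21.9, 23.5 and 20.4 at 2 wks and 25.6, 25.4, 30.4 and 25.7 at 7 wks. The 2-wk mice were the lowest, and E18.5 and 7 wks overlapped. The fall to 2 wks had a log2 fold change of -0.50 (SE 0.15, adjusted P = 0.00824), which was -0.14 without the GC trend (adjusted P = 0.293). From 2 to 7 wks the change was 0.30 (SE 0.15, adjusted P = 0.141), and at 7 wks against E18.5 it was -0.20 (SE 0.15, adjusted P = 0.237). The latter depended on the setting, from -1.48 with total counts (adjusted P = 5.99e-07) and -0.45 with upper-quartile scaling (adjusted P = 0.0179) to 0.05 without the GC trend (adjusted P = 0.689). The difference between the 2 steps, 0.80 (SE 0.26, adjusted P = 0.0255), no longer passed without 2 wks replicate 1, 2 or 4 (adjusted P = 0.0854, 0.0650 and 0.0832) or without the GC trend (0.33, adjusted P = 0.219). Relative to *Eed*, *Suz12* fell by 0.89 in log2 count ratio by 2 wks (pooled SD 0.11, lower in 16 of 16 pairs, exact permutation P = 0.0286, adjusted 0.0406), and by 0.54 without the GC trend. At 7 wks the same ratio ranged from -0.58 to 0.64 (exact permutation P = 0.914 against 2 wks).

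**Figure D2:**
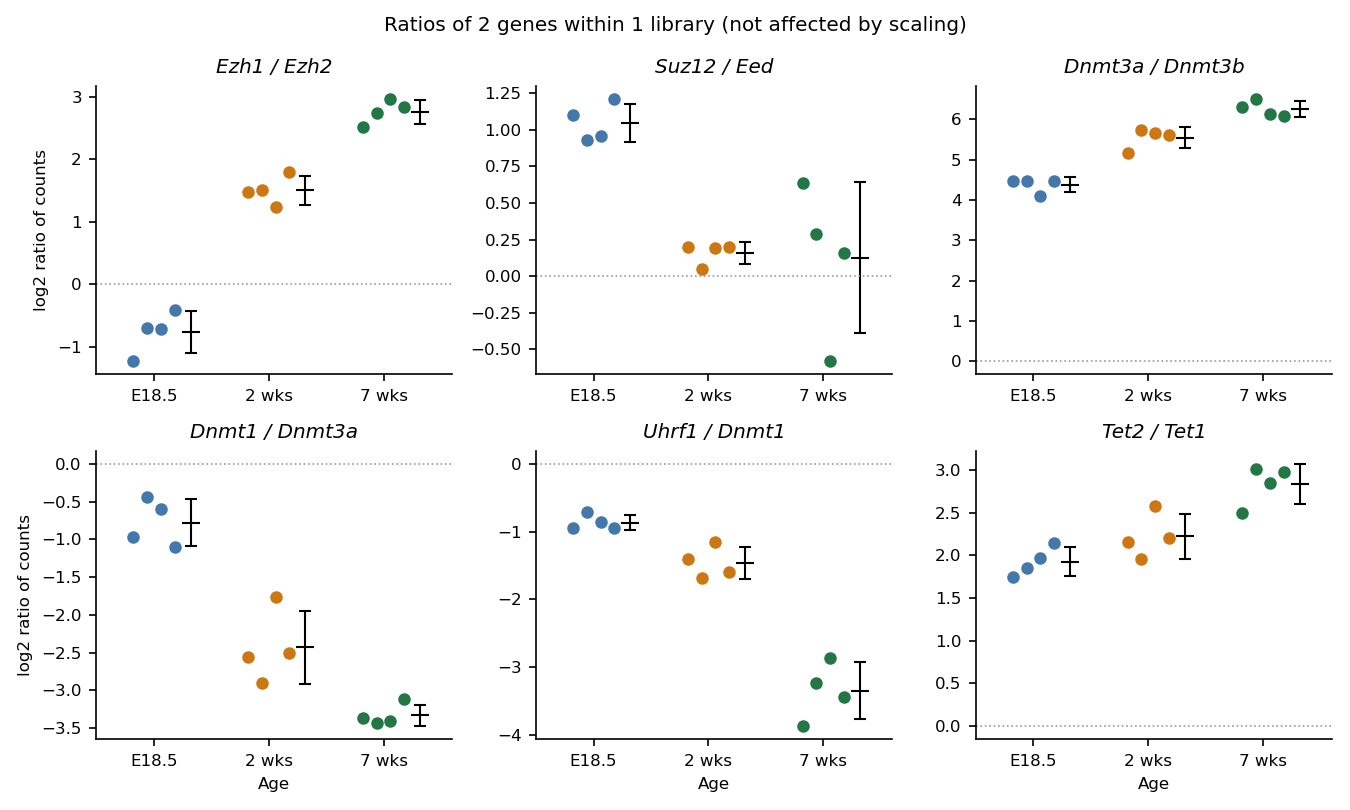
Log2 ratio of the counts of 2 genes in the same library (y axis) for 6 pairs, by age (x axis), 1 point per mouse, with the mean and SD as a black bar and equal counts as a dotted line. The *Ezh1* to *Ezh2* ratio is below 0 in all 4 mice at E18.5 and between 1.23 and 2.96 in all 8 postnatal mice.

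Among the DNA methyltransferases, *Dnmt3a* (ENSMUSG00000020661, chr12:3801559-3914443), which methylates DNA anew, was at 73.5, 96.4, 86.6 and 94.1 CPM at E18.5, at 159, 172, 164 and 185 at 2 wks and at 203, 197, 130 and 155 at 7 wks. All postnatal mice lay above all E18.5 mice on this scale. The mean went from 87.6 ± 10.3 to 170.0 ± 11.2 CPM (SD, n = 4), a 1.94-fold rise (log2 fold change 0.95, SE 0.16, adjusted P = 0.000158), whereas with total counts the change was 0.02 (adjusted P = 0.910). From 2 to 7 wks it stayed at 171 ± 35.0 CPM (log2 fold change 0.0111, SE 0.16, adjusted P = 0.968), with 7 wks replicates 1 and 2 above and replicates 3 and 4 at or below the 2-wk mice. The rise to 7 wks from E18.5, 0.97 (SE 0.16, adjusted P = 0.000105), was -0.31 with total counts (adjusted P = 0.104). The later step was smaller than the earlier one by 0.94 (SE 0.27, adjusted P = 0.0154), a call that was lost without 2 wks replicate 4 (adjusted P = 0.0538) and with total counts (-0.35, adjusted P = 0.340).

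*Dnmt1* (ENSMUSG00000004099, chr9:20907206-20959888), the maintenance methyltransferase, was at 37.6, 71.1, 57.1 and 44.0 CPM at E18.5, 26.9, 23.0, 48.6 and 32.6 at 2 wks and 19.7, 18.3, 12.3 and 17.8 at 7 wks. The mice at 7 wks were the lowest without overlap, while 2 wks replicate 3 reached into the E18.5 range. The first fall, from 52.4 ± 14.8 to 32.8 ± 11.2 CPM (SD, n = 4), had a log2 fold change of -0.68 (SE 0.25, adjusted P = 0.0274). It lost the threshold without the length trend (-0.33, adjusted P = 0.231) and without any 1 of 5 libraries, E18.5 replicates 2 and 3 and 2 wks replicates 1, 2 and 4 (-0.67 to -0.49, adjusted P from 0.0584 to 0.0952). The fall from 2 to 7 wks was -0.95 (SE 0.25, adjusted P = 0.0134), and the one from E18.5 to 7 wks was 3.08-fold (log2 fold change -1.62, SE 0.25, adjusted P = 6.16e-05).

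*Dnmt3b* (ENSMUSG00000027478, chr2:153649411-153687730), the second enzyme for new methylation, was low throughout. It was at 3.29, 4.35, 5.07 and 4.25 CPM at E18.5, 4.44, 3.23, 3.23 and 3.82 at 2 wks and 2.59, 2.17, 1.87 and 2.28 at 7 wks. The first 2 ages overlapped (log2 fold change -0.21, SE 0.19, adjusted P = 0.361), though the fall passed with total counts (-1.14, adjusted P = 0.00031) and without the GC trend (-0.49, adjusted P = 0.0243). *Dnmt3b* fell 1.65-fold from 2 to 7 wks (log2 fold change -0.72, SE 0.20, adjusted P = 0.0152), a call lost without 2 wks replicate 1 (-0.63, adjusted P = 0.0525).

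The balance within the family moved toward *Dnmt3a* at both steps, whatever the scaling. Per kilobase, the ratio of *Dnmt1* to *Dnmt3a* fell from 0.977 ± 0.207 before birth to 0.319 ± 0.116 by 2 wks and 0.164 ± 0.0168 by 7 wks (SD, n = 4). Single mice lay between 0.770 and 1.21 before birth and between 0.153 and 0.189 at 7 wks. *Dnmt3a* exceeded *Dnmt3b* by 9.14 ± 1.12, 20.5 ± 3.40 and 33.5 ± 4.53 per kilobase. Each of these steps went the same way in 16 of 16 pairs of mice (exact permutation P = 0.0286, adjusted 0.0406).

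*Uhrf1* (ENSMUSG00000001228, chr17:56303337-56323486), which brings DNMT1 to newly copied DNA, had the largest fall of the 10 genes from E18.5 to 7 wks. It was at 19.5, 43.6, 31.5 and 22.8 CPM at E18.5, at 10.2, 7.20, 21.8 and 10.7 at 2 wks and at 1.34, 1.96, 1.69 and 1.63 at 7 wks. The 7-wk mice were far below the rest, and 2 wks replicate 3, the mouse with the high cell cycle sum, lay among the E18.5 mice. Its mean fell 2.35-fold by 2 wks (log2 fold change -1.23, SE 0.32, adjusted P = 0.00362) and then 7.52-fold (log2 fold change -2.91, SE 0.34, adjusted P = 7.89e-05), in all from 29.3 ± 10.8 to 1.65 ± 0.251 CPM (SD, n = 4). The later fall was larger by 1.68 (SE 0.54, adjusted P = 0.0247). Without 2 wks replicate 3 this excess was 0.86 and did not pass (adjusted P = 0.167), with total counts it was 1.04 (adjusted P = 0.114) and without the GC trend 1.31 (adjusted P = 0.0619). *Uhrf1* fell relative to *Dnmt1* as well, from a per-kilobase ratio of 0.897 ± 0.0734 to 0.599 ± 0.0992 and 0.165 ± 0.0472, lower in 16 of 16 pairs at each step (exact permutation P = 0.0286, adjusted 0.0406).

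*Tet2* (ENSMUSG00000040943, chr3:133463677-133545136), an enzyme of methylcytosine oxidation, was at 83.2, 55.7, 51.1 and 62.3 CPM at E18.5, 38.1, 31.2, 32.3 and 32.9 at 2 wks and 33.4, 37.9, 13.8 and 21.1 at 7 wks. The E18.5 mice were the highest, and those of 7 wks spread around and below the 2-wk mice. The fall to 2 wks had a log2 fold change of -0.91 (SE 0.26, adjusted P = 0.00727), which was -0.50 without the GC trend (adjusted P = 0.0639) and -0.37 without the length trend (adjusted P = 0.0990). The step to 7 wks was -0.34 (SE 0.26, adjusted P = 0.351).

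*Tet1* (ENSMUSG00000047146, chr10:62804570-62887469), its relative known from embryonic cells, was at 24.9, 15.4, 13.1 and 14.1 CPM at E18.5, 8.60, 8.10, 5.41 and 7.15 at 2 wks and 5.92, 4.72, 1.91 and 2.67 at 7 wks. Only at the boundary between 2 and 7 wks did mice overlap, with 1 of 16 pairs against the direction. *Tet1* fell by 1.21 on the log2 scale by 2 wks (SE 0.32, adjusted P = 0.00424), or -0.53 without the GC trend (adjusted P = 0.0771). The second step, -0.95 (SE 0.32, adjusted P = 0.0418), missed the threshold without any 1 of 6 libraries, 2 wks replicates 1, 2 and 4 and 7 wks replicates 2, 3 and 4 (adjusted P from 0.0519 to 0.115). *Tet2* gained on *Tet1*, with a log2 count ratio of 1.93 ± 0.17 before birth that became 2.22 ± 0.26 by 2 wks and 2.83 ± 0.23 by 7 wks (SD, n = 4). Of these steps the rise of 0.91 from E18.5 to 7 wks passed (exact permutation P = 0.0286, adjusted 0.0406), and those of 0.29 and 0.62 did not (adjusted 0.140 and 0.0771).

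**Figure D3:**
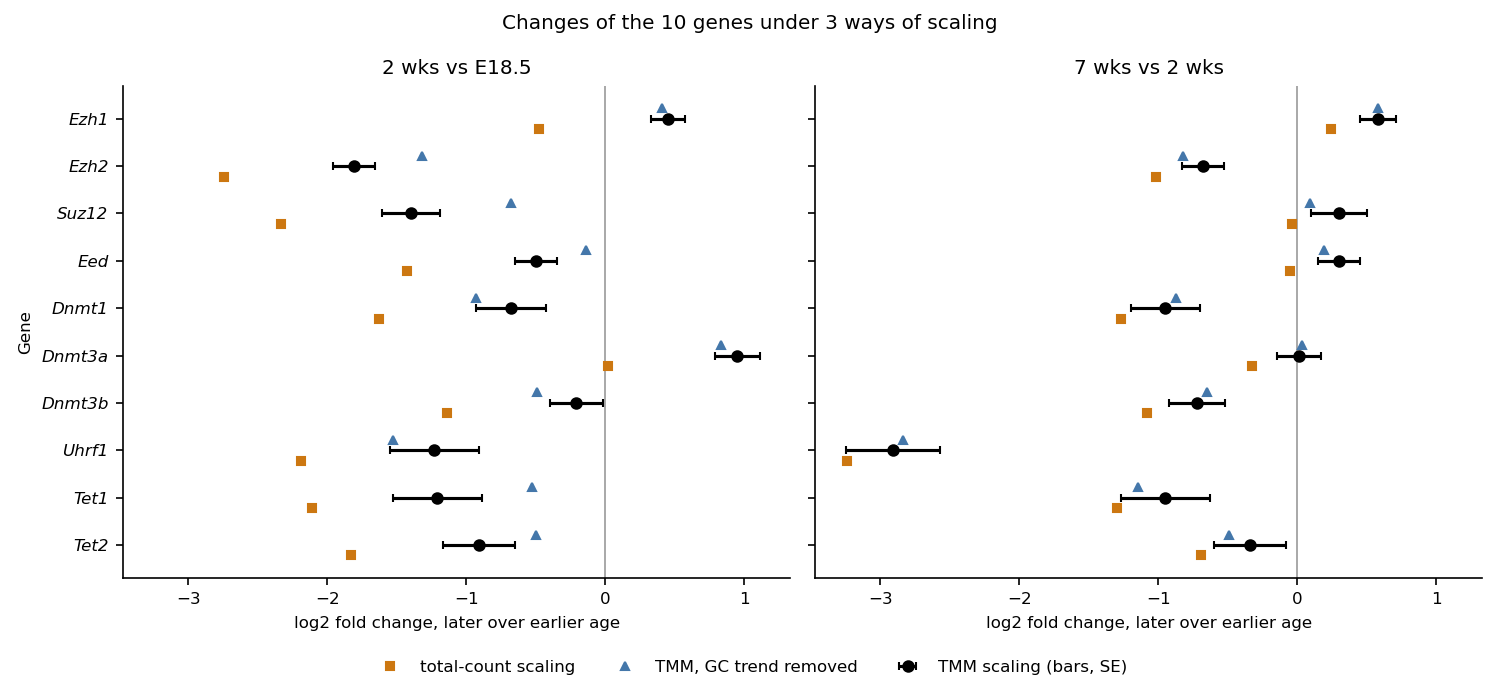
Log2 fold change (x axis) of each gene (y axis) at 2 wks against E18.5 and at 7 wks against 2 wks, with TMM scaling (circles, bars show the SE), total-count scaling (squares) and TMM with the GC trend removed (triangles). At 2 wks, *Ezh1* is at 0.45 with TMM and -0.48 with total counts and *Dnmt3a* at 0.95 and 0.02, while *Ezh2*, *Suz12*, *Eed*, *Dnmt1*, *Dnmt3b*, *Uhrf1*, *Tet1* and *Tet2* lie below 0 in each way.

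Levels can be compared between genes only per length, here as CPM per kilobase of canonical transcript. At E18.5 the order was *Ezh2* (14.8 ± 2.35), *Eed* (14.7 ± 2.95), *Suz12* (13.1 ± 3.22), *Dnmt3a* (8.99 ± 1.06), *Dnmt1* (8.85 ± 2.50), *Uhrf1* (8.07 ± 2.96), *Tet2* (6.44 ± 1.45), *Ezh1* (6.35 ± 0.833), *Tet1* (1.21 ± 0.390) and *Dnmt3b* (0.996 ± 0.172). Of the neighbours in this order, *Ezh1* and *Tet1* alone did not overlap in range. At 7 wks *Dnmt3a* (17.6 ± 3.58), *Ezh1* (13.0 ± 0.921) and *Eed* (12.8 ± 1.14) led, each overlapping in range with the next, followed without overlap by *Suz12* (6.14 ± 1.65). Below it, the neighbours in order overlapped among *Dnmt1* (2.87 ± 0.551), *Tet2* (2.71 ± 1.13) and *Ezh2* (2.64 ± 0.296), and again among *Dnmt3b* (0.523 ± 0.0696), *Uhrf1* (0.455 ± 0.0691) and *Tet1* (0.272 ± 0.132), where *Dnmt3b* and *Tet1* themselves did not overlap. At 2 wks the order was *Dnmt3a*, *Eed*, *Ezh1*, *Dnmt1*, *Suz12*, *Ezh2*, *Uhrf1*, *Tet2*, *Dnmt3b* and *Tet1*, from 17.4 ± 1.15 down to 0.523 ± 0.101. By this length *Ezh2* went from the first place before birth to the seventh at 7 wks and *Ezh1* from the eighth to the second. By the length of all annotated exons joined, *Ezh2* stood behind *Suz12* and *Eed* before birth and in the seventh place at 7 wks, and *Ezh1* in the eighth place and then behind *Dnmt3a* and *Eed*.

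Genes of the cell cycle fell alongside. Of 20 such genes, 19 fell by 2 wks, against 34.2% of all genes, with a median log2 fold change of -1.91 against -0.0925. From 2 to 7 wks 19 fell and 1 (*Ccne2*) rose, against 13.9 and 13.5% of all genes. The median was then -2.58 against -0.0339. The largest early falls were those of *Ccne1* (-3.29, SE 0.21), *Ccnb1* (-2.80, SE 0.35) and *Bub1* (-2.68, SE 0.30), which drive S-phase entry, mitotic entry and the spindle checkpoint. Their summed level lay between 818 and 1140 CPM before birth, between 215 and 418 at 2 wks and between 71.0 and 86.4 at 7 wks. *Pcna*, the replication clamp gene, changed by -0.81 (SE 0.19) and then -0.58 (SE 0.19), a smaller fall than the list median at both steps. Ratios to it thus compare with that 1 gene, not with the list. *Ezh2* (-1.81, then -0.68) was near the list median at the first step and fell less at the second. *Dnmt1* (-0.68, then -0.95) fell less at both. *Ezh2* fell more than *Pcna* by 2 wks, by 1.0 in log2 count ratio (pooled SD 0.26, exact permutation P = 0.0286, adjusted 0.0406), and the ratio of *Ezh2* to *Pcna* moved by -0.12 from 2 to 7 wks (adjusted 0.586). *Uhrf1* moved by -0.48 against *Pcna* at the first step (adjusted 0.268) and fell by 2.25 at the second (adjusted 0.0406). For *Dnmt1* none of the 3 comparisons with *Pcna* passed (adjusted 0.943, 0.110 and 0.514). Without the GC trend the first-step values against *Pcna* were -1.36 for *Uhrf1* and -0.71 for *Dnmt1*.

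**Figure D4:**
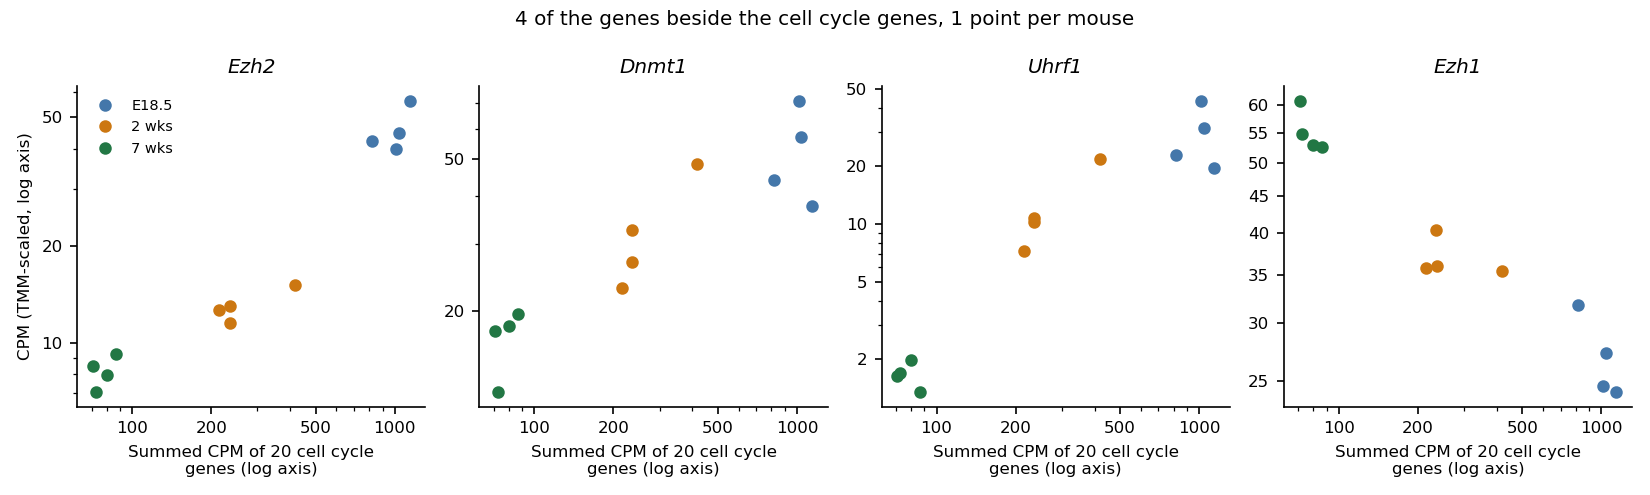
TMM-scaled CPM (y axis, log) of *Ezh2*, *Dnmt1*, *Uhrf1* and *Ezh1* against the summed CPM of 20 cell cycle genes (x axis, log), 1 point per mouse, coloured by age. The single 2-wk mouse at a sum of 418 CPM has *Uhrf1* at 21.8 and *Dnmt1* at 48.6 CPM, above the other 2-wk mice, while *Ezh1* at 35.4 is not apart from them.

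Marker genes of several cell types shifted with age too. The summed markers of fibroblasts (8 genes) were at 7093 to 12136, 3600 to 5301 and 897 to 3144 CPM at the 3 ages, those of macrophages (7) at 167 to 213, 85.8 to 125 and 23.3 to 74.0, and those of myoblasts and satellite cells (7) at 142 to 276, 99.9 to 179 and 45.8 to 67.4. Endothelial markers (6) were at 356 to 508, 828 to 977 and 537 to 804 CPM, red blood cell markers (7) at 242 to 1026, 146 to 756 and 92.0 to 130, and cartilage and bone markers (7) at 23.6 to 158, 5.60 to 34.2 and 6.68 to 18, with *Matn1* at 0 at 2 and 7 wks. By 2 wks 31.5% of all genes rose and 34.2% fell, and 13.9% fell from 2 to 7 wks. Of the 8 fibroblast markers 6 fell by 2 wks and 4 from 2 to 7 wks, and of the 7 myoblast and satellite cell markers 3 and 3 fell. The 3 of 7 by 2 wks were near the share of all genes. Of the 7 macrophage markers 2 rose (*C1qa*, 1.29, and *C1qc*, 0.93) and 2 fell (*Adgre1*, -2.40, and *Mrc1*, -1.77) by 2 wks, with a median log2 fold change of -0.07, and 6 fell from 2 to 7 wks. Total counts gave 0 up and 4 down by 2 wks for this list, and removal of the GC trend 0 and 3. In whole muscle, fewer cells of a type and less RNA per cell cannot be told apart, and the part of these shifts in the changes of the 10 genes was not tested.

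The genes around PRC2 and DNA methylation are given by list. Shares of all genes in these paragraphs come from TMM scaling. Calls with total counts belong beside the all-gene counts of that scaling given above, where most changed genes fell. Another 11 genes of PRC2 are grouped here as accessory subunits, though *Rbbp4* and *Rbbp7* are counted with its core and *Ezhip* encodes an inhibitor. Of these 11 genes 10 were tested. By 2 wks 2 rose and 6 fell (total counts 0 and 8, GC trend removed 0 and 4), with a median log2 fold change of -0.71 against -0.0925 for all genes. Of all genes 31.5% rose and 34.2% fell. *Phf19* (-1.49, SE 0.24), *Rbbp4* (-1.27, SE 0.14) and *Mtf2* (-1.22, SE 0.25) fell most, the first and last of which bind the complex to CpG-rich DNA. The 2 that rose, *Epop* (1.61, SE 0.35) and *Phf1* (1.12, SE 0.27), were at 0.05 and 0.02 without the GC trend, where *Rbbp4* was at -0.63 and *Mtf2* at -0.44. From 2 to 7 wks 1 rose and 2 fell (total counts 0 and 4), *Aebp2* up by 0.64 and *Phf19* (-1.47) and *Epop* (-1.04) down, and from E18.5 to 7 wks 1 rose and 5 fell (total counts 0 and 8). The 3 of 10 called from 2 to 7 wks were near the 27.5% of all genes. The 6 of 10 called from E18.5 to 7 wks were below the 71.4% of all genes.

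Polycomb repressive complex 1 (PRC1), which reads the mark of PRC2 and adds ubiquitin to histone H2A, was near the background of all genes in its counts by 2 wks. Of its 20 genes 7 rose and 8 fell (total counts 1 and 13, median -0.10), where 31.5% of all genes rose and 34.2% fell (median -0.0925), 6 rose and 5 fell from 2 to 7 wks (total counts 4 and 6, median 0.18, with 13.5 and 13.9% of all genes), and 9 rose and 9 fell from E18.5 to 7 wks (total counts 2 and 14, with 34.3 and 37.1% of all genes). *Cbx7*, one of the interchangeable subunits that read the histone mark, rose from 0.833 ± 0.186 to 8.94 ± 1.79 and 26.0 ± 7.38 CPM (log2 fold change 3.42, SE 0.25, adjusted P = 1.91e-07, then 1.54, SE 0.23, adjusted P = 0.000488). *Cbx2*, another of them, fell from 9.20 ± 2.04 to 3.87 ± 0.142 and 1.46 ± 0.305 CPM (-1.25, SE 0.20, then -1.41, SE 0.21). Among the Polycomb group ring finger genes, which define PRC1 variants, *Pcgf5* rose (1.29, SE 0.22, then 1.40, SE 0.22), *Pcgf2* fell (-1.26, SE 0.20, then -1.31, SE 0.20) and *Bmi1* rose between 2 and 7 wks (1.03, SE 0.17, adjusted P = 0.000829). Of the 2 alternative ubiquitin ligases, *Ring1* rose by 1.52 (SE 0.27) by 2 wks while *Rnf2* fell by 1.37 (SE 0.17), and *Rybp*, a subunit of variant PRC1, fell by 1.45 (SE 0.26). Without the GC trend *Ring1* was at 0.40, *Rnf2* at -0.64 and *Rybp* at -0.81 by 2 wks. These directions of *Cbx7*, *Cbx2*, *Pcgf5*, *Pcgf2*, *Ring1*, *Rnf2* and *Rybp* by 2 wks held with total counts.

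Of the 8 genes that remove Polycomb marks or help to, 3 rose and 5 fell by 2 wks (total counts 0 and 6, GC trend removed 2 and 2), with a median of -0.61. Of all genes 31.5% rose and 34.2% fell, with a median of -0.0925. *Asxl3* (-1.92, SE 0.22), *Asxl1* (-1.17, SE 0.16) and the demethylase gene *Kdm6a* (-0.92, SE 0.21) fell most, and *Bap1* (0.91, SE 0.16), *Kdm6b* (0.90, SE 0.23) and *Usp16* (0.34, SE 0.14) rose, whereas total-count scaling gave -0.03, -0.03 and -0.59. ASXL proteins are partners of BAP1, an enzyme that removes ubiquitin from histone H2A. Without the GC trend *Kdm6a* was at -0.19 and *Kdm6b* at -0.10. Between 2 and 7 wks 1 rose (*Usp16*, 0.61) and 1 fell (*Asxl3*, -0.64), 2 of 8 and near the 27.5% of all genes that changed. From E18.5 to 7 wks 3 rose and 4 fell (total counts 0 and 7), with 34.3 and 37.1% of all genes.

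Of 21 partners of DNA methylation 20 were tested, of which 6 rose and 6 fell by 2 wks (total counts 5 and 13), near the 31.5 and 34.2% of all genes. From 2 to 7 wks 5 rose and 5 fell (total counts 1 and 8, with 13.5 and 13.9% of all genes), and from E18.5 to 7 wks 8 rose and 7 fell (total counts 3 and 13, with 34.3 and 37.1%). *Hells* (-2.39, SE 0.34) and *Cdca7* (-2.32, SE 0.27), which together open chromatin for DNA methylation, fell most and fell again from 2 to 7 wks (-1.97, SE 0.35, and -2.31, SE 0.28). *Uhrf2*, the relative of *Uhrf1*, fell by 1.43 (SE 0.13) by 2 wks and was at 0.10 (SE 0.13, adjusted P = 0.601) after that, unlike *Uhrf1* in values, though this difference was not tested. The largest rises were those of *Gadd45g* (4.87, SE 0.50), *Mbd3* (2.31, SE 0.39) and *Gadd45b* (2.15, SE 0.31), the first and last of a family linked to stress and DNA demethylation, and they held with total counts. *Tet3*, the third TET gene, was at 46.4 ± 5.48, 45.1 ± 4.96 and 32.6 ± 6.75 CPM (log2 fold change -0.04, adjusted P = 0.833, then -0.47, adjusted P = 0.0489). Without the GC trend these steps of *Tet3* were -1.21 and -0.02, so the time of its fall depended on that choice. *Dnmt3l*, the cofactor of germ cells, stayed at or below 0.0483 CPM on average and was not tested.

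**Figure D5:**
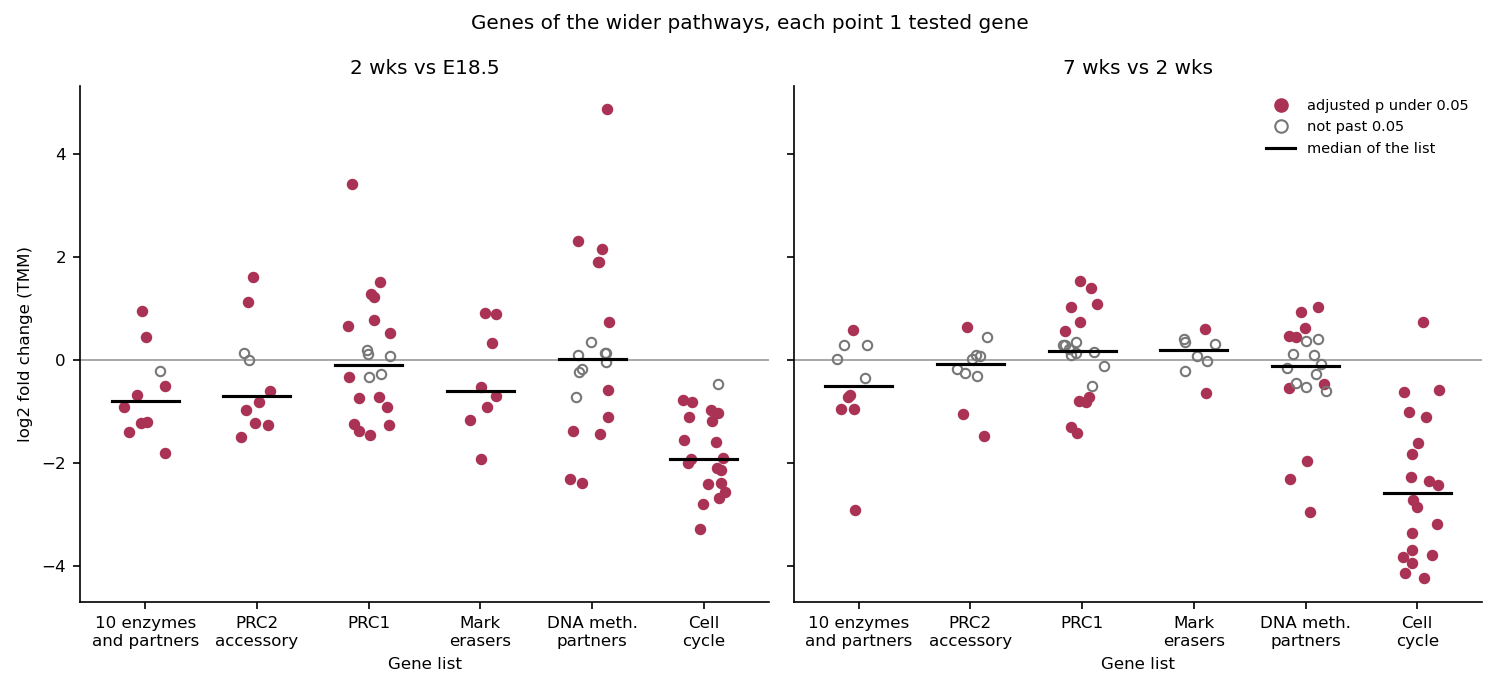
Log2 fold change with TMM scaling (y axis) of each tested gene of the 10 enzymes and partners and of 5 wider lists (x axis), at 2 wks against E18.5 and at 7 wks against 2 wks. Filled points are past an adjusted P of 0.05, open ones are not, and lines are list medians, which are -1.91 and -2.58 for the cell cycle and -0.10 and 0.18 for PRC1. With total-count scaling the points of the left panel lie lower, by a median of 0.93.

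Genes known to be silenced by these systems were also looked at. Of 12 classical PRC2 targets in other tissues, developmental genes together with *Cdkn2a* and *Cdkn2b*, 2 had enough counts to test. The summed level of the 12 was 0.410 to 0.568 CPM at E18.5 and 0.726 to 1.38 at 7 wks, with 8 of the 12 at 0 in all 7-wk libraries. Only *Cdkn2b* and *Pax2* (0.00145 to 0.01 CPM) had a higher mean at 7 wks than at E18.5. *Lhx2* went from 0.171 to 0.133 CPM and *Gata4* from 0.0722 to 0. *Cdkn2b*, which encodes a cell cycle inhibitor, was at 0.175 ± 0.0682, 0.328 ± 0.134 and 0.874 ± 0.213 CPM and rose from 2 to 7 wks by 1.40 (SE 0.37, adjusted P = 0.0133). Its neighbour *Cdkn2a* had at most 6 counts in a library. Another 12 are germline genes that DNA methylation silences in somatic cells, of which 6 passed the filter on low counts. A gene could pass it through its E18.5 counts alone, so these genes are described by level, with no count of changes. The summed level of the 12 went from 6.76 to 8.79 CPM at E18.5 to 0.288 to 0.711 at 2 wks, led by *Tdrd1* (3.48 ± 0.663 to 0.0358 ± 0.0287 CPM), *Sycp3* (1.48 ± 1.30 to 0.0826 ± 0.0241) and *Slc25a31* (1.38 ± 0.423 to 0.210 ± 0.176). At 7 wks the sum was 0.276 to 0.775 CPM. Not every gene followed it. *Dazl* was at 0.102 ± 0.0315, 0.0945 ± 0.0436 and 0.28 ± 0.142 CPM at the 3 ages, and *Dpep3* at 0.00371, 0.0294 and 0.0283.

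Lastly, the genes whose pattern over the 12 libraries was most like that of *Ezh1*, *Ezh2* and *Tet2* were found by the root mean square difference of centred log2 CPM among 8948 genes. For *Ezh1* these were *Idua*, *Atg14*, *Dazap2*, *Phaf1* and *Polr3c*, at 0.101 to 0.108. For *Ezh2* they were *Cep192*, *Tbc1d31*, *Tfpi*, *Smc4* and *Slbp*, at 0.126 to 0.161, of which *Cep192*, *Smc4* and *Slbp* are known to act in centrosomes, chromosome condensation and histone mRNA. For *Tet2* they were *Cald1*, *Adam10*, *Armcx3*, *Niban1* and *Lpp* (0.175 to 0.197).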

How the data were processed

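RNA was isolated from TA muscle with TRI Reagent, and libraries were made with the TruSeq Stranded mRNA kit and sequenced as paired ends. Per the labels, the submitters' processing notes name bcl2fastq 2.17.1.14, cutadapt 1.10, STAR 2.5.3a, HTSeq 0.6.1p1 and the mm10 build, whereas the study's methods name GRCm39. The authors deposited raw read counts per Ensembl gene, all whole numbers. The strand setting and annotation of the counting are not given in the sources used here. Coordinates and promoter sequences come from RefSeq on GRCm38.p6. Symbols (matched for 51477 of 55450 identifiers), transcript lengths and GC content come from GENCODE vM39.

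After filterByExpr had removed 36174 genes, counts were scaled with TMM, and 1 quasi-likelihood model with a term for age was fitted to all 12 libraries in edgeR 4.0.16, run under R 4.3.3 with limma 3.58.1. The Benjamini-Hochberg adjustment ran over 19276 genes, and the threshold was an adjusted P of 0.05. The biological coefficient of variation was 0.279. Groups came from the labelled age, and the difference between the later and the earlier step was a contrast of its own. Ratios of 2 genes were tested by two-sided exact permutation over mice, adjusted over 27 tests. Alternatives were total-count and upper-quartile scaling, TMM with the 20 most abundant and the mitochondrial genes left out, only the 8 libraries compared, a block for the replicate number, a minimum of 10 counts per library, leaving out the filter, DESeq2 1.42.0, removal of each library's trend over GC content or length (known for 98.7% of tested genes), and each library left out. Added after seeing the data was exon union length for the share of *Ezh1*. The procedure was tested on simulated data. The 10 genes, the gene lists and the tests were chosen with earlier results of these data known. Named list genes are the 3 largest rises and falls past the threshold by 2 wks in each of 5 lists, with others given by value. The genes most like *Ezh1*, *Ezh2* and *Tet2* were named by the 5 smallest distances, and those found for *Dnmt3a* are not reported here. The genes had 67 to 18862 counts in a library, and intervals cover only the spread between these mice, and each of the 18 replicate pairs differed beyond counting error (31.8 to 620 for chi-square over its degrees of freedom). Python 3.11.15, pandas 2.3.3, scipy 1.17.1 and matplotlib 3.10.9 were used.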

Additional observations from a re-analysis of the deposited data

Results flagged for a closer look

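Among 57 sets of 4 mice, a single mouse lay far from the other 3 by Dixon's criterion in 5, where chance gives about 1 in 20, or 2.85. *Ezh1* in 2 wks replicate 4 was at 40.3 CPM, against 35.4 to 36.0 in the others. *Eed* in 7 wks replicate 3 was at 30.4 CPM, against 25.4 to 25.7. The log2 count ratio of *Suz12* to *Eed* in 2 wks replicate 2 was 0.05, against 0.19 to 0.20. That of *Dnmt3a* to *Dnmt3b* in E18.5 replicate 3 was 4.09, against 4.47 to 4.48. That of *Dnmt1* to *Pcna* in E18.5 replicate 1 was -0.70, against 0.34 to 0.51.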

How the results depend on the processing

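Of the 40 log2 fold changes of the 10 genes, those that changed sign with total-count scaling were *Ezh1* at 2 wks (-0.48, adjusted P = 0.00452) and at 7 wks against E18.5 (-0.24), *Dnmt3a* at 7 wks against E18.5 (-0.31) and against 2 wks (-0.33), *Suz12* (-0.04) and *Eed* (-0.05) at 7 wks against 2 wks, and the difference between steps of *Dnmt1* (0.36) and *Dnmt3b* (0.06). With the GC trend removed they were *Eed* at 7 wks against E18.5 (0.05) and the difference between steps of *Dnmt1* (0.05) and *Tet1* (-0.63), and with the length trend removed the difference between steps of *Ezh1* (-0.05), *Tet1* (-0.55) and *Tet2* (-0.14) and *Dnmt3a* at 7 wks against 2 wks (-0.13). That last value was also -0.10 with upper-quartile scaling, -0.03 with at least 10 counts in every library and -0.03 with only the 8 libraries compared. Of these reversals, only that of *Ezh1* at 2 wks was past the threshold. Leaving out each library in turn, *Dnmt3a* at 7 wks against 2 wks ranged from -0.08 to 0.12, and the differences between steps of *Dnmt1* from -0.55 to 0.23 and of *Tet1* from -0.04 to 0.47. *Ezh1* kept its sign and call in each age comparison under every alternative but total counts.

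With the GC trend removed, 3 instead of 5 of the 10 genes differed between steps (3 to 5 with each library left out, 3 without 2 wks replicate 4), 4 instead of 8 PRC2 accessory subunits changed by 2 wks, and 4 of the genes that remove Polycomb marks changed instead of 8 by 2 wks and of 7 by 7 wks. The count of the latter from 2 to 7 wks, 2, was 1 with total counts, 1 without the filter and 1 to 3 with a library left out, and that of DNA methylation partners, 10, was 6 without the filter and 5 to 11 (5 without 2 wks replicate 1). All genes called from 2 to 7 wks were 5296, and 3472 to 6145 with a library left out, lowest without 2 wks replicate 1. Ratio changes moved beyond the replicate SD when the GC trend was removed for *Ezh1* to *Ezh2* (1.74 by 2 wks, 3.13 by 7 wks), *Suz12* to *Eed* (-0.54 by 2 wks), *Tet2* to *Tet1* (0.04 and 0.69), *Dnmt1* to *Pcna* (-0.71 and -0.86) and *Uhrf1* to *Pcna* (-1.36 and -3.39). None moved so far with any library left out. The causes were not tested.

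Deviations of libraries that share a replicate number had r of -0.142 to 0.284 (median 0.0247, over 0.1 in 2 of 12 pairs). The median of other pairs was -0.00909. Such correlations cannot tell whether the numbers stand for a shared litter or batch, and the main fit used no pairing. With the replicate block, 9, 6, 9 and 5 of the 10 genes passed in the 4 tests, as without it, and 1 instead of 2 genes that remove Polycomb marks passed from 2 to 7 wks. By exon union length, *Ezh1* made up 31.9, 69.0 and 84.2% of the pair instead of 30.2, 67.3 and 83.1%. The depth limits *Uhrf1* and *Dnmt3b* at 7 wks most, with 67 to 126 and 122 to 140 counts a library.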
